A study of Homo sapiens with 32 samples.

Results

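Chemokine receptors are G protein-coupled receptors on leukocytes, and chemokines are the small secreted proteins that bind them. The 8 genes described here encode 6 receptors (CXCR3, CX3CR1, CCR1, CCR2, CCR10 and CXCR4) and 2 ligands (CXCL10 and CCL3). They are 8 of 24249 genes with a value in the deposited table. They were chosen from measured values, with the difference between ATRA and DMSO in these libraries known. Their ATRA against DMSO values are therefore given as a description with no test. Expression was measured by RNA sequencing of MM.1S, an established human multiple myeloma cell line, which is a malignant plasma cell line. Each of 8 libraries was sequenced in 4 lanes, which GEO lists as 32 samples, and was counted once.

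The libraries fall into 4 treatments. Every culture had a pulse of 1 h followed by 12 h in fresh medium. In the DMSO group (3 libraries), both the pulse and the later medium held the vehicle DMSO. In the ATRA group (3 libraries), a DMSO pulse was followed by medium with 10 µM all-trans retinoic acid (ATRA), a vitamin A metabolite that activates nuclear retinoic acid receptors. In the Cfz group (1 library), the pulse held the proteasome inhibitor carfilzomib (Cfz), at a dose not given in the sources used here, and DMSO followed. In the ATRA+Cfz group (1 library), the Cfz pulse was followed by 10 µM ATRA. All libraries come from this one cell line, and the labels do not say whether the libraries of a group are separate cultures, so p-values measure how libraries vary, which can be technical.

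When a chemokine binds its receptor, inhibitory G proteins are activated, calcium and small GTPase signals follow, and the cell migrates towards the source. Receptor kinases and arrestins then end the signal, and RGS proteins speed up the switching off of the G protein. In myeloma, CXCR4 is known for homing of plasma cells to bone marrow stroma that secretes CXCL12. CCL3, which binds CCR1, is known for its link to osteoclast formation in myeloma bone disease. CXCR3 binds the interferon-inducible ligands CXCL9, CXCL10 and CXCL11.

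The promoters of CXCL10, a ligand gene lower with ATRA, and of CXCR4, a receptor gene higher with ATRA, are shown because these genes moved in opposite directions and because their promoters differ in the motifs they hold. Both are the 250 bases before the start listed by RefSeq on GRCh38.p14, 5′ to 3′ on the gene's own strand, which is the minus strand for both. The CXCL10 window is chr4:76023498-76023747. Its capitals mark an interferon-response match (GAAA and GAAA with any 2 bases between them, from -221 to -212 relative to the start) and a pair of matches to the kB consensus of NF-kB, from -177 to -168 and from -122 to -113.
CXCL10 promoter: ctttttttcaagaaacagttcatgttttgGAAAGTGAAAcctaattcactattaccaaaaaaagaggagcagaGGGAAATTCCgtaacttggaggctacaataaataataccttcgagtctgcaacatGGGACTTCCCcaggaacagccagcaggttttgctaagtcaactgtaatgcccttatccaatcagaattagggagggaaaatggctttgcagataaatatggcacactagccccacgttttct
The CXCR4 window is chr2:136118150-136118399, before the start that RefSeq lists as number 1. Its capitals mark TATAAA matches on both strands, which overlap and span -32 to -25.
CXCR4 promoter: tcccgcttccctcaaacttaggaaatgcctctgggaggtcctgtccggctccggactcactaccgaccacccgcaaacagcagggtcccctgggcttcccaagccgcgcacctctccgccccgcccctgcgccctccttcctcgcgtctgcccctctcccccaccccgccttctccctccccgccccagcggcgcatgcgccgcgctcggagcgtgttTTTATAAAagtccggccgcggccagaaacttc
Motifs were searched on both strands in the same 250 bases of 35116 promoters. The interferon-response motif was in 3.02% of them, the kB consensus in 5.21% and TATAAA in 10.7%. AGGTCA, a form of the retinoic acid receptor half-site, was in 12.1% of all promoters and in no window of the 7 members with an entry (13 starts). Only these exact letters were searched, so variant forms, such as AGTTCA in the CXCL10 window, were not counted. The gamma-activated site TTCNNNGAA, in 6.57% of promoters, matched at CCR1 (-206 to -198) and at the start of CX3CR1 listed as number 3 (-94 to -86), and CCL3 held TATAAA from -29 to -24. CCR10 had no entry. A match describes letters in the window and nothing about binding.

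Values are FPM, fragments scaled to a total of 1000000 per library, in which 1 read counts the same for every gene, so levels are compared between libraries and not between genes. Libraries held 14136937 to 17155331 reads, and 3 reads correspond to 0.1749 to 0.2122 FPM. Of 11 plasma cell markers, 10 reached 1 FPM, and their summed level was 8340 to 9790 FPM in the DMSO libraries, 11300 to 11400 FPM in the ATRA libraries, 8470 FPM in Cfz and 9500 FPM in ATRA+Cfz. The markers did not move together. By limma, 6 of 10 tested were higher with ATRA than with DMSO and 3 lower at an adjusted p under 0.05 (all genes 21.3% and 27.4%). XBP1 (895 to 2650 FPM) and SDC1 (423 to 1230 FPM) were among those higher. JCHAIN (4670 to 3890 FPM), SLAMF7 (686 to 367 FPM) and IRF4 (1140 to 836 FPM) were lower. CYP26A1, a retinoic acid-degrading enzyme used as a check of ATRA exposure, was 83.2 ± 8.5 FPM (SD, n = 3) with DMSO and 3810 ± 7.1 FPM (SD, n = 3) with ATRA. HMOX1, a stress-inducible heme oxygenase, was 159 FPM in Cfz and 177 FPM in ATRA+Cfz against 20.1 ± 4.4 FPM (SD, n = 3) with DMSO. Each library is from bulk cells, so fewer cells expressing a gene and less RNA per cell cannot be told apart.

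With ATRA, CXCR3, CX3CR1, CXCL10, CCL3 and CCR1 were lower than with DMSO, and CXCR4, CCR10 and CCR2 were higher. No DMSO library overlapped the ATRA libraries in any of the 8 genes, which were chosen with this contrast known. The share of all genes without such overlap was not counted, so the separation cannot be read as particular to these 8 genes. Over all 15827 genes tested, limma called 48.7% different between ATRA and DMSO, 21.3% higher and 27.4% lower. A call here and below means an adjusted p (Benjamini-Hochberg) under 0.05. The DMSO 3 library was the lowest of its group for 7 of the 8 genes and the highest for CXCR4. For each of the 8 genes the SD in FPM was smaller among the ATRA libraries than among the DMSO libraries.

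The same ATRA difference can be read in a pair of libraries that the ATRA against DMSO contrast does not hold, ATRA+Cfz against Cfz. There, 7 of the 8 genes passed the test, 5 lower (CXCR3, CX3CR1, CCR1, CXCL10 and CCL3) and 2 higher (CXCR4 and CCR10). Over all genes tested, 30.4% were called, 12.8% higher and 17.6% lower. CCR2 did not pass. Each of these groups is a single library, so the test assumes that it varies like the DMSO and ATRA libraries and there is no replicate check. The members were chosen with earlier results of these data known, so this test may not be independent of that choice.

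**Figure D1:**
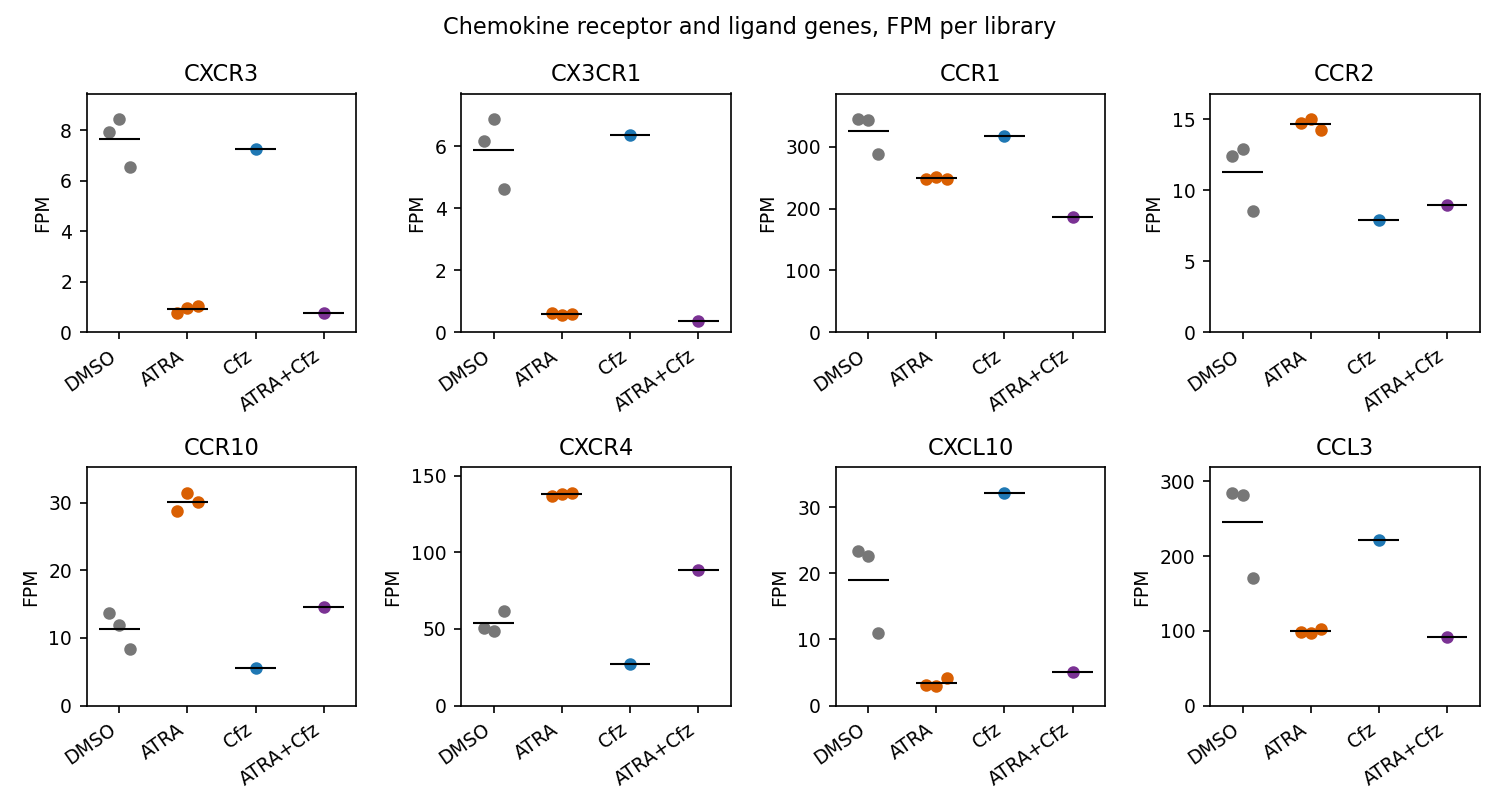
FPM (linear axes from 0, each gene with its own scale) of the 8 chemokine genes in the 3 DMSO, 3 ATRA, 1 Cfz and 1 ATRA+Cfz libraries. Points are libraries and horizontal lines are group means. CXCR3 and CX3CR1 lie near 0 in each library with ATRA, and CXCR4 is highest with ATRA (137 to 139 FPM) and lowest with Cfz (27.0 FPM).

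CXCR3 is the receptor for CXCL10. It was at 7.93, 8.45 and 6.56 FPM in the DMSO libraries and 7.28 FPM in Cfz, against 0.758, 0.972 and 1.02 FPM in the ATRA libraries and 0.773 FPM in ATRA+Cfz. The libraries thus form a high set without ATRA and a low set with it, and within each set the library with a Cfz pulse lies inside the range of the others. The means were 7.65 ± 0.97 FPM (SD, n = 3) with DMSO and 0.916 ± 0.14 FPM (SD, n = 3) with ATRA, a difference of -2.52 ± 0.16 (SE) on the log2(FPM + 0.5) scale. After a Cfz pulse CXCR3 fell by 2.61 ± 0.27 on that scale (adjusted p = 2.7e-05). The pseudocount of 0.5 FPM holds the size of such a difference down at low levels, and on recovered reads edgeR gave -3.02 for ATRA against DMSO. The low values rest on few reads: the ATRA+Cfz library had 11, with a 95% Poisson interval of 0.388 to 1.39 FPM that covers counting error only.

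CX3CR1, the fractalkine receptor, had the same order. Its values were 6.18, 6.88 and 4.61 FPM with DMSO and 6.36 FPM with Cfz, against 0.63, 0.56 and 0.571 FPM with ATRA and 0.352 FPM with ATRA+Cfz. The ATRA+Cfz library is the lowest, but it held 5 reads, and its 95% interval of 0.115 to 0.825 FPM contains the 3 ATRA values. The difference of ATRA from DMSO was -2.54 ± 0.17 (5.89 ± 1.2 and 0.587 ± 0.038 FPM, SD, n = 3 each), or -3.28 with edgeR on recovered reads. After a Cfz pulse CX3CR1 fell by 3.01 ± 0.3 (adjusted p = 2.1e-05). A Cfz pulse without ATRA left both receptors within the DMSO range, with 95% intervals for the log2 difference of -0.54 to 0.42 for CXCR3 and -0.42 to 0.66 for CX3CR1.

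Both receptors are known from T and NK cells, whose markers were looked at in the same libraries. Of 13 such markers 7 had a value and 3 reached 1 FPM, and their summed level was 11.5 to 18.5 FPM with DMSO, 14.2 to 17.7 FPM with ATRA, 19.1 FPM with Cfz and 18.2 FPM with ATRA+Cfz. Most of that sum was NCAM1, which myeloma cells can also express, with 11.6 ± 3.9 FPM in DMSO and 12.7 ± 1.4 FPM in ATRA libraries (SD, n = 3 each). Of the 4 that passed the filter, 1 was called with ATRA, and the median log2 difference was -0.04. That one, CD3E, a T cell receptor complex subunit, fell, from 1.26 ± 0.24 to 0.522 ± 0.046 FPM (SD, n = 3 each; log2 difference -0.78 ± 0.19, adjusted p = 4.5e-03) and from 1.05 to 0.214 FPM after a Cfz pulse (-1.12 ± 0.32, adjusted p = 0.022). The value of 0.214 FPM is close to the 0.2122 FPM that 3 reads make in that library. Of the 4 markers, edgeR called 1 and DESeq2 0 in both of these comparisons. GNLY, a cytotoxic granule protein, was at 0.595 ± 0.11 and 0.81 ± 0.17 FPM (SD, n = 3 each; 0.26 ± 0.19, adjusted p = 0.31). TRAC and CD8A stayed under 1 FPM in each library and were not tested, but were higher with ATRA. TRAC was at 0.124 ± 0.062 and 0.462 ± 0.19 FPM, and CD8A at 0.0421 ± 0.037 and 0.238 ± 0.026 FPM (SD, n = 3 each). Mean levels of CD3G (0.295 and 0.127 FPM) and KLRD1 (2.04 and 1.65 FPM) were lower with ATRA. The part of these markers in the CXCR3 and CX3CR1 differences was not tested. Of 10 myeloid markers 6 had a value, with sums of 1.34 to 1.81 FPM with DMSO, 1.94 to 2.55 FPM with ATRA, 2.3 FPM with Cfz and 2.55 FPM with ATRA+Cfz. Of the 2 that passed the filter, S100A9 was called higher with ATRA (0.92 ± 0.23, adjusted p = 5.6e-03) but not after a Cfz pulse (0.67 ± 0.39, adjusted p = 0.23). ITGAM was not called with ATRA (0.22 ± 0.21, adjusted p = 0.42). Mean levels of CD33 and CD14 were higher with ATRA, and those of FCN1 and CSF1R were lower. Of 7 stromal markers 4 had a value, with sums of 0.602 to 1.45, 1.39 to 1.46, 2.55 and 2.26 FPM with DMSO, ATRA, Cfz and ATRA+Cfz. PDGFRB, the only one that passed the filter, was called higher with Cfz (1.24 ± 0.31, adjusted p = 0.014). edgeR called it too, and DESeq2 did not. In the Cfz library COL1A1 was slightly above its DMSO mean, while DCN and COL1A2 were below theirs. The B cell markers, 2 of 6 with a value, summed to 29.4 to 34.8 FPM with DMSO, 24.6 to 27.5 FPM with ATRA, 32.4 FPM with Cfz and 22.5 FPM with ATRA+Cfz. Most of this was CR2, which fell with ATRA (-0.44 ± 0.07, adjusted p = 3.1e-04), while CD79A rose from 0.202 ± 0.24 to 2.31 ± 0.47 FPM (SD, n = 3 each; 2.04 ± 0.25, adjusted p = 3.5e-05).

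CCR1, a receptor for CCL3 and CCL5, showed a smaller difference. The DMSO libraries were at 345, 343 and 288 FPM and Cfz at 317 FPM, the ATRA libraries at 248, 251 and 248 FPM, and ATRA+Cfz at 187 FPM. The order was DMSO and Cfz together, then ATRA, then ATRA+Cfz. The means of 325 ± 33 and 249 ± 1.7 FPM (SD, n = 3 each) differ by -0.38 ± 0.06 in log2. Between the pulsed libraries CCR1 fell by 0.76 ± 0.1 (adjusted p = 2.2e-04).

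CCR2, the receptor for CCL2, lies beside CCR1 and CCR3 on chromosome 3 in the RefSeq gene order. It was at 12.4, 12.9 and 8.5 FPM with DMSO, 14.7, 15.0 and 14.2 FPM with ATRA, 7.88 FPM with Cfz and 8.92 FPM with ATRA+Cfz. Both libraries with a Cfz pulse were low, close to the lowest DMSO library, whichever medium followed. The ATRA difference from DMSO was 0.38 ± 0.13 in log2, and 0.2 without the DMSO 3 library. After a Cfz pulse it was 0.17 ± 0.23 with a 95% interval of -0.34 to 0.68 (adjusted p = 0.63), so neither no difference nor one as large as that without the pulse lies outside it. CCR1 and CCR3 transcripts share 1 word of 31 bases.

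CCR10, the receptor for CCL27 and CCL28, had 13.7, 11.9 and 8.43 FPM with DMSO and 28.7, 31.5 and 30.1 FPM with ATRA. Cfz was lower than any DMSO library at 5.51 FPM, and ATRA+Cfz stood at 14.5 FPM. ATRA values were thus highest, Cfz lowest, and ATRA+Cfz lay just above the highest DMSO library. The log2 difference of ATRA from DMSO was 1.4 ± 0.14 (11.3 ± 2.7 and 30.1 ± 1.4 FPM, SD, n = 3 each). CCR10 also rose with ATRA in the pulsed pair, by 1.32 ± 0.24 (adjusted p = 1.5e-03).

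CCR10 overlaps CNTNAP1, a neuronal adhesion gene on the opposite strand. With no strand setting given in the sources used here, their reads may be mixed: 12.4% of the 31-base words of CCR10 transcripts also occur, on either strand, in those of CNTNAP1. CNTNAP1 was at 17.0, 18.5 and 12.7 FPM with DMSO, 25.8, 24.3 and 25.1 FPM with ATRA, 11.3 FPM with Cfz and 18.6 FPM with ATRA+Cfz, so it had the same order of treatments. The ratio of CCR10 to CNTNAP1 was 0.642 to 0.805 with DMSO, 1.11 to 1.29 with ATRA, 0.488 with Cfz and 0.779 with ATRA+Cfz, so reads of CCR10 moved by more than those of its partner. With both genes summed, a choice made after seeing the data, the ATRA difference was 1.02 against DMSO and 0.96 after a Cfz pulse (adjusted p = 3.4e-03). Non-coding genes that also overlap CCR10 were not summed.

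CXCR4, the CXCL12 receptor, was at 50.6, 48.7 and 61.6 FPM with DMSO, 137, 138 and 139 FPM with ATRA, 27.0 FPM with Cfz and 88.4 FPM with ATRA+Cfz. The 4 treatments stand in a clear order, ATRA, then ATRA+Cfz, then DMSO, then Cfz, with no overlap between libraries. The means were 53.6 ± 7.0 and 138 ± 1.3 FPM (SD, n = 3 each), a log2 difference of 1.36 ± 0.07. In the pulsed pair CXCR4 rose by 1.69 ± 0.13 (adjusted p = 2.4e-06). The gene had 412 reads in the Cfz library and 1249 in ATRA+Cfz, with 95% Poisson intervals of 24.5 to 29.8 and 83.5 to 93.4 FPM.

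CXCL10, the interferon-inducible ligand of CXCR3, was at 23.4, 22.6 and 10.9 FPM with DMSO, 3.15, 2.99 and 4.14 FPM with ATRA, 32.2 FPM with Cfz and 5.02 FPM with ATRA+Cfz. In both media the library with a Cfz pulse was above every library without it, and each library with ATRA lay below the lowest DMSO library. The DMSO 3 value lay far below the other DMSO values. The log2 difference of ATRA from DMSO was -2.24 ± 0.24 (19.0 ± 7.0 and 3.43 ± 0.62 FPM, SD, n = 3 each). With a Cfz pulse first, CXCL10 fell by 2.57 ± 0.41 (adjusted p = 6.8e-04), so the ligand and its receptor CXCR3 were both lower with ATRA in both settings.

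CCL3, a ligand of CCR1, was at 285, 282 and 171 FPM with DMSO, 98.1, 97.6 and 103 FPM with ATRA, 221 FPM with Cfz and 92.2 FPM with ATRA+Cfz. Libraries with ATRA were low and lay close together, and Cfz lay within the DMSO range. The log2 difference of ATRA from DMSO was -1.26 ± 0.15 (246 ± 65 and 99.5 ± 2.9 FPM, SD, n = 3 each). In the pulsed pair CCL3 fell by 1.26 ± 0.26 (adjusted p = 3.3e-03), a call that was lost with robust empirical Bayes (adjusted p = 0.092).

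The CCL3 values depend on how reads were divided between CCL3 and its near-identical copy CCL3L1, which share 20.9% of the 31-base words of CCL3 transcripts in GENCODE release 29. CCL3L1 went the other way, with 128, 121 and 73.5 FPM in DMSO, 166, 160 and 159 FPM in ATRA, 108 FPM in Cfz and 186 FPM in ATRA+Cfz, and was called higher with ATRA (log2 difference 0.63 ± 0.16, adjusted p = 5.5e-03) and after a Cfz pulse (0.78 ± 0.27, adjusted p = 0.046). The share of CCL3 in the sum of both was 69.0 to 70.0% with DMSO and 67.3% with Cfz, against 37.1 to 39.3% with ATRA and 33.2% with ATRA+Cfz. The sum was 413, 402 and 244 FPM with DMSO, 265, 258 and 261 FPM with ATRA, 329 FPM with Cfz and 278 FPM with ATRA+Cfz, so the DMSO 3 library was then below the 3 ATRA libraries. For the sum, the ATRA difference was -0.4 ± 0.15 against DMSO, or -0.64 without DMSO 3, and -0.24 ± 0.26 after a Cfz pulse, where the call was lost (adjusted p = 0.53) but was kept without DMSO 3 (-0.24, adjusted p = 7.4e-05). This summing was chosen after seeing the data. The CCL3 and CCL3L1 values are therefore uncertain as values of single genes.

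**Figure D2:**
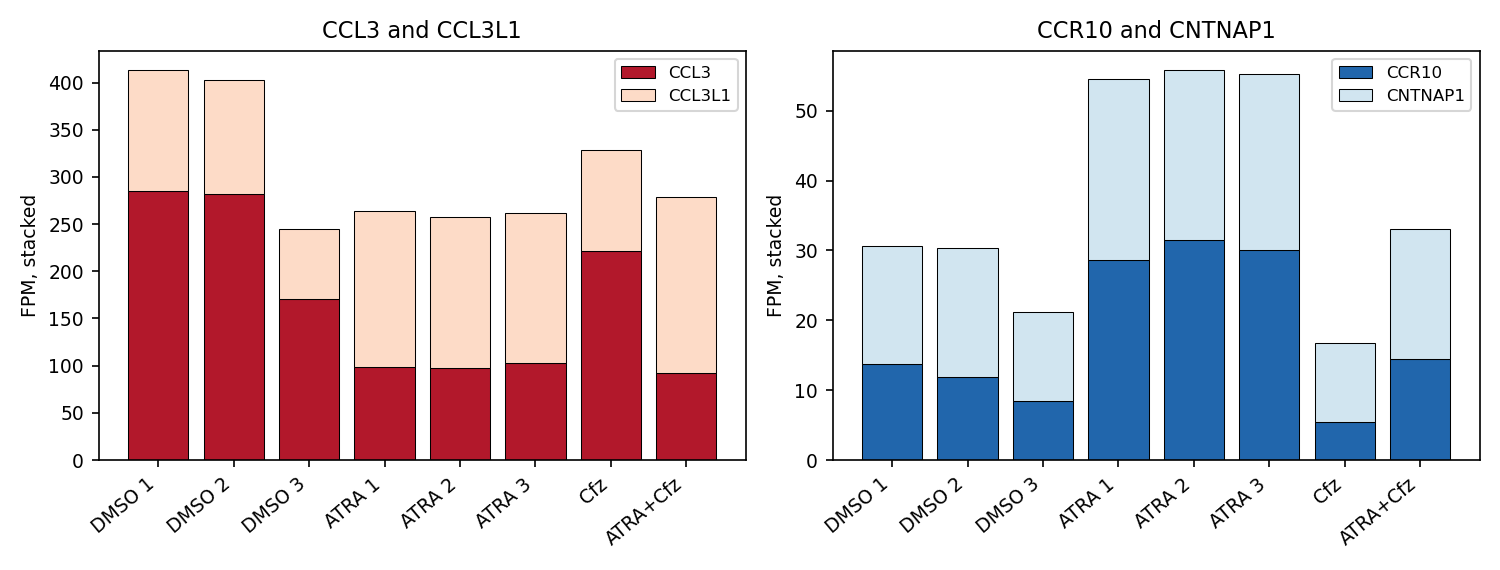
Stacked bars of FPM per library for CCL3 with its copy CCL3L1 (left) and CCR10 with the overlapping CNTNAP1 (right), axes from 0, no error bars since each bar is 1 library. With ATRA the CCL3 portion shrinks while the CCL3L1 portion grows, and for CCR10 and CNTNAP1 both portions are larger with ATRA than with DMSO.

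In Cfz against DMSO, 2 of the 8 genes were called, both lower: CXCR4 (-0.97 ± 0.1, adjusted p = 7.5e-05) and CCR10 (-0.95 ± 0.2, adjusted p = 4.8e-03). Over all genes, 24.9% were called in Cfz against DMSO, 7.94% higher and 17.0% lower, so 2 of 8 is near the share over all genes. The Cfz group is a single library, with no replicate check. For CCR10 summed with CNTNAP1 the difference was -0.67 (adjusted p = 0.011). CXCL10 (0.83 ± 0.34, 95% interval 0.08 to 1.57) and CCR2 (-0.47 ± 0.19, -0.89 to -0.05) each had an adjusted p of 0.1. For CCR1 and CCL3 the intervals were -0.22 to 0.15 and -0.58 to 0.35. Without the DMSO 3 library, 6 of the 8 genes were called: CXCL10 (0.48, adjusted p = 0.039), CCR1 (-0.12), CCR2 (-0.65) and CCL3 (-0.36) were added. Calls over all genes also rose without that library, from 3948 to 5442.

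In cells that then received ATRA, 4 of the 8 genes were called, each lower in ATRA+Cfz, a single library, than in ATRA. Over all genes, 30.9% were called in this comparison, 10.6% higher and 20.2% lower. CXCR4 fell by 0.64 ± 0.1 (adjusted p = 7.4e-04), CCR10 by 1.03 ± 0.2 (adjusted p = 2.2e-03), CCR1 by 0.41 ± 0.08 (adjusted p = 3.6e-03) and CCR2 by 0.68 ± 0.19 (adjusted p = 0.019). These are receptors, and CXCR4 and CCR10 were also lower with the pulse alone. CCR2 lost its call without the ATRA 2 library (-0.67, adjusted p = 0.052). The intervals were -0.63 to 0.33 for CXCR3, -0.89 to 0.19 for CX3CR1, -0.24 to 1.25 for CXCL10 and -0.57 to 0.35 for CCL3. Without DMSO 3, which is in neither group but adds to the shared estimate of spread, CXCL10 (0.5, adjusted p = 0.019) and CCL3 (-0.11, adjusted p = 0.038) were called as well. Calls over all genes in this comparison also rose without that library, from 4884 to 6389. The comparisons with DMSO share the DMSO libraries, and those with ATRA share the ATRA libraries.

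Whether the ATRA difference itself changed with the pulse was tested as an interaction, the difference of ATRA+Cfz from Cfz minus that of ATRA from DMSO. It was called for 0 of the 8 genes by limma, edgeR and DESeq2, and for 2.30% of all genes by limma. That share rests on single libraries: it is 364 genes, but 2 without ATRA 1 and 1985 without DMSO 3. At an unadjusted p under 0.05 limma gave 2 members, CCR1 (-0.38 ± 0.12, adjusted p = 0.12) and CXCR4 (0.33 ± 0.15, adjusted p = 0.27). For CCR1 the ATRA difference was -0.38 without the pulse and -0.76 after it. Without the DMSO 3 library 3 members were called, CCR1 (-0.29, adjusted p = 4.5e-04), CXCR4 (0.22, adjusted p = 0.043) and CCL3 (0.25, adjusted p = 0.01). The other members had 95% intervals for this interaction that contain 0, of which the widest was -1.37 to 0.73 for CXCL10.

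**Figure D3:**
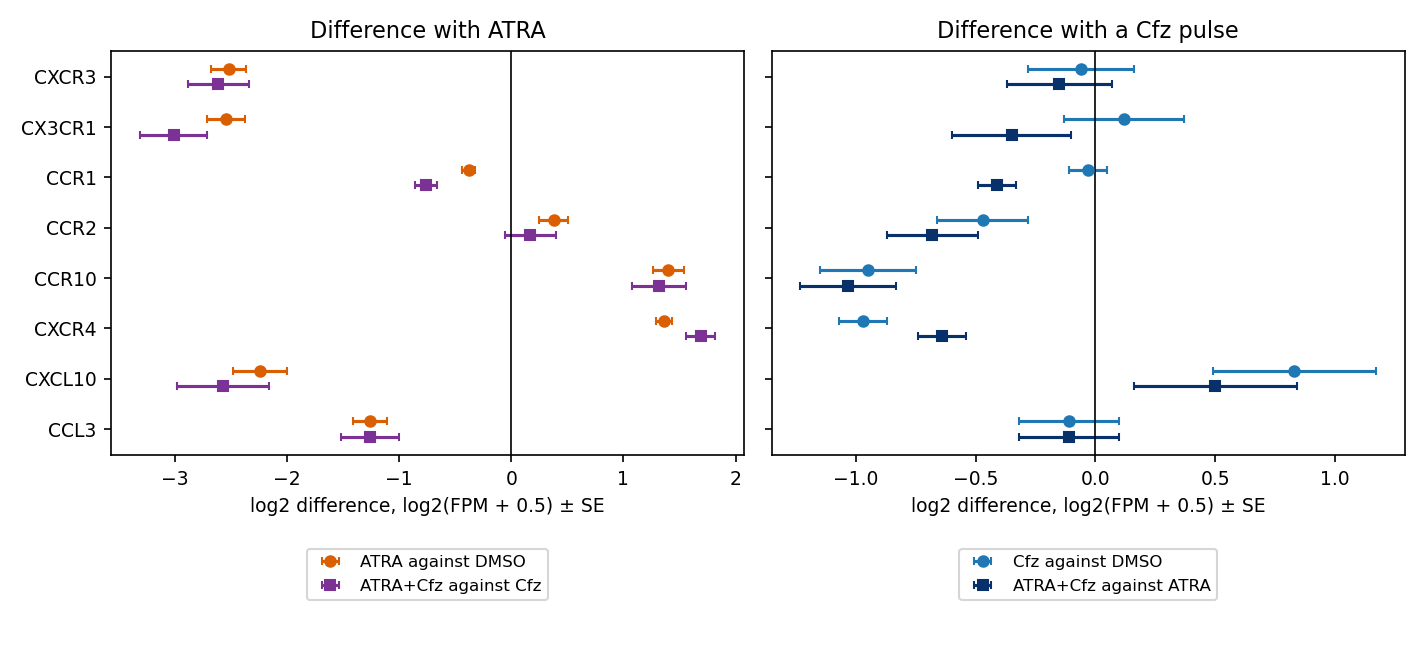
Log2 differences of the 8 genes on the log2(FPM + 0.5) scale (points) with their standard errors (bars), for ATRA against DMSO and ATRA+Cfz against Cfz (left) and for Cfz against DMSO and ATRA+Cfz against ATRA (right). The left pair lies on the same side of 0 for each gene, and on the right CXCR4 and CCR10 lie near -1 or between -1 and -0.5 in both comparisons.

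Of 64 other chemokine ligands and receptors, 26 had a value and 14 passed the filter of a mean of the 4 group means of at least 0.5 FPM. Of these 14, 1 was called higher and 4 lower with ATRA than with DMSO, with a median log2 difference of -0.21 against -0.03 over all genes tested, of which 21.3% were called higher and 27.4% lower. After a Cfz pulse 1 was called higher and 3 lower (median -0.33, all genes 0.0, with 12.8% called higher and 17.6% lower). There edgeR called 4 of the 14 and DESeq2 2. Of the 5 tested CC ligands in that comparison, edgeR called 3 and DESeq2 1. In Cfz against DMSO, limma called 0 of 14, beside 24.9% of all genes, and 2 had an unadjusted p under 0.05. edgeR and DESeq2 also called 0 of them. CCL3L1 was the one called higher in both ATRA comparisons.

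Other CC and CXC ligands were among those lower with ATRA. CCL5 fell from 8.02 ± 1.7 to 3.47 ± 0.12 FPM (SD, n = 3 each; -1.08 ± 0.15, adjusted p = 9.9e-05) and from 11.2 to 2.91 FPM after a Cfz pulse (-1.77 ± 0.26, adjusted p = 3.7e-04). CCL4 fell from 4.55 ± 1.2 to 1.5 ± 0.17 FPM (SD, n = 3 each; -1.31 ± 0.19, adjusted p = 1.2e-04) and, after a pulse, from 4.01 to 1.63 FPM (-1.08 ± 0.33, adjusted p = 0.026), but it has a close copy too, CCL4L1, at 5.48 ± 0.86 and 4.63 ± 0.17 FPM (SD, n = 3 each). CXCL16, the transmembrane ligand of CXCR6, fell from 16.0 ± 0.39 to 10.2 ± 1.1 FPM (SD, n = 3 each; -0.63 ± 0.09, adjusted p = 1.5e-04) and from 14.9 to 7.92 FPM (-0.87 ± 0.16, adjusted p = 1.8e-03). ACKR4, a scavenging receptor for CCL19 and CCL21, was lower with ATRA (-1.03 ± 0.2, adjusted p = 1.2e-03) and differed by -0.74 ± 0.35 after the pulse (adjusted p = 0.14).

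Among 20 tested genes of chemokine receptor signalling, 4 were called higher and 12 lower with ATRA (median -0.22), and 2 higher and 9 lower after a Cfz pulse (median -0.23). Over all genes the shares called were 48.7% and 30.4%. GNAI1, an inhibitory G protein subunit through which these receptors signal, fell from 24.0 ± 0.64 to 9.55 ± 1.1 FPM (SD, n = 3 each; -1.29 ± 0.09, adjusted p = 4.6e-07) and after the pulse from 17.1 to 6.79 FPM (-1.27 ± 0.16, adjusted p = 1.3e-04). PLCB3, a phospholipase that such G proteins activate, fell by 0.88 ± 0.1 and by 1.29 ± 0.17 (adjusted p = 1.5e-05 and 1.5e-04). DOCK2 and RAC1, a GTPase activator and a GTPase of migrating leukocytes, were lower in both comparisons, by -0.52 and -0.41 for DOCK2 and by -0.4 and -0.52 for RAC1. ELMO1, the partner of DOCK2, was higher with ATRA (0.42 ± 0.03, adjusted p = 1.3e-06), after the pulse (0.23 ± 0.06, adjusted p = 0.013) and with the pulse alone (0.34 ± 0.05, adjusted p = 5.3e-04).

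Of 14 tested genes that end chemokine receptor signals, 1 was called higher and 9 lower with ATRA (median -0.34; all genes 21.3% higher, 27.4% lower), and 0 higher and 6 lower after a Cfz pulse (median -0.35; all genes 12.8% and 17.6%). RGS1, which shortens G protein signals in B-lineage cells, fell from 206 ± 6.4 to 75.0 ± 3.2 FPM (SD, n = 3 each; -1.45 ± 0.04, adjusted p = 4.2e-10) and from 256 to 74.1 FPM (-1.78 ± 0.07, adjusted p = 3.5e-08). GRK2, a kinase that phosphorylates activated receptors, was lower with ATRA and with Cfz: it stood at 229 ± 7.9 FPM with DMSO, 159 ± 2.1 FPM with ATRA (SD, n = 3 each), 164 FPM with Cfz and 111 FPM with ATRA+Cfz, and was called in each of the 4 comparisons. RGS16 fell with the pulse in both media, by 0.85 ± 0.17 (adjusted p = 4.0e-03) and by 0.92 ± 0.17 (adjusted p = 1.9e-03).

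Of 8 tested genes for chemokine processing and for other ligands of these receptors, 0 were called higher and 5 lower with ATRA, and 1 higher and 6 lower after a Cfz pulse, beside 48.7% and 30.4% of all genes called in either direction. ADAM10, a protease that sheds CXCL16 and fractalkine, fell from 482 ± 26 to 281 ± 5.6 FPM (SD, n = 3 each; -0.78 ± 0.04, adjusted p = 4.6e-08) and from 418 to 263 FPM (-0.67 ± 0.07, adjusted p = 3.8e-05). HMGB1, which acts on CXCR4 together with CXCL12, fell by 0.72 ± 0.04 and by 0.8 ± 0.07 (adjusted p = 1.0e-07 and 1.2e-05). MIF, a non-chemokine ligand of CXCR4, was at 124 ± 9.6 FPM with DMSO, 126 ± 3.4 FPM with ATRA (SD, n = 3 each), 99.6 FPM with Cfz and 71.2 FPM with ATRA+Cfz.

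Of 14 transcription factors known to act on CXCL10 or CCL3, 5 were called higher and 7 lower with ATRA, and 3 higher and 4 lower after a Cfz pulse, where 48.7% and 30.4% of all genes were called. IRF1, an interferon-induced activator, rose from 82.8 ± 0.78 to 200 ± 6.4 FPM (SD, n = 3 each; 1.27 ± 0.04, adjusted p = 4.2e-10) and from 79.4 to 229 FPM (1.52 ± 0.06, adjusted p = 4.0e-08). NFKB1, an NF-kB subunit, fell by 0.48 ± 0.04 with ATRA (adjusted p = 2.3e-06) and by 0.59 ± 0.07 after the pulse (adjusted p = 1.1e-04). JUN fell by 0.89 ± 0.06 with ATRA (adjusted p = 2.0e-07) and by 0.34 ± 0.1 after a Cfz pulse (adjusted p = 0.022).

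**Figure D4:**
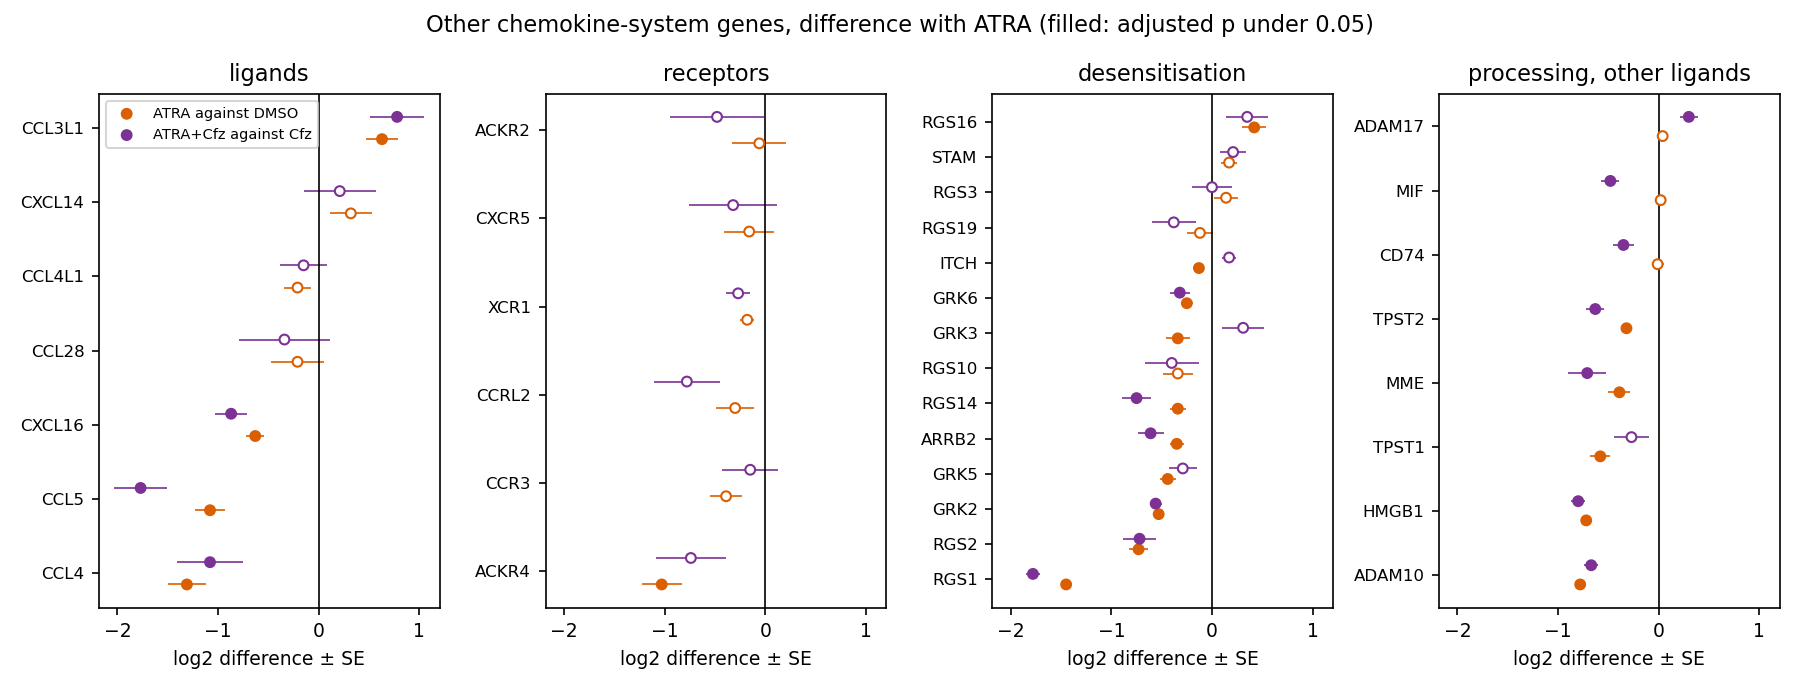
Log2 differences with ATRA (x axis, log2(FPM + 0.5) scale, bars are standard errors) of other chemokine ligands, receptors, desensitisation genes and processing genes among those that passed the filter. Filled points have an adjusted p under 0.05. RGS1, CCL5 and CCL4 lie farthest to the left among filled points of both comparisons, and CCL3L1 is the ligand filled on the right.

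The genes whose log2 values over the 8 libraries were most like those of each member were found among 12789 genes by Pearson's r. This is a description, since the 8 libraries are of 4 treatments and share depth and processing. MTMR10, GYG1 and ARHGAP6 were nearest to CXCR3 (r = 0.999, 0.997 and 0.996) and TRIP10, GYG1 and DDIAS nearest to CX3CR1 (0.998, 0.995 and 0.995), but 605 and 548 genes had r over 0.95 with them. CXCL10 was nearest to GNPTAB, RAB3B and RGS2 (0.996, 0.994 and 0.992), CXCR4 to TRIM11 and PIK3CB (0.997 for both), and CCL3 to RUBCN, MAN2B2 and ACACB (0.998, 0.997 and 0.994). CCR1 was nearest to UNC93B1, IGLL5 and ITM2C (0.994, 0.994 and 0.992) and CCR10 to GFRA1, TAP2 and ARSI (0.994, 0.994 and 0.993). CCR2, nearest to PKP2, STMN3 and NDST1 (0.989, 0.988 and 0.984), had 33 genes over 0.95, the fewest of the 8. Between members, r was 0.99 for CXCR3 with CX3CR1, 0.94 for CXCR3 with CXCL10, 0.94 for CXCR4 with CCR10 and -0.97 for CXCL10 with CXCR4.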

How the data were processed

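The submitters' processing notes name fastp 0.20.0, kallisto 0.46.2 and DESeq2. Build, annotation and strand setting: not given in the sources used here. The authors deposited FPM values per lane, a CPM unit: each column summed to 1000000 over 24249 gene IDs, and whole reads were recovered for 100% of the deposited values within 0.01 read. The 4 lanes of each library were averaged. The test was limma 3.58.1 (R 4.3.3), trended, on log2(FPM + 0.5) for the 15827 genes whose 4 group means averaged at least 0.5 FPM. A single fit held the 8 libraries (4 residual, 7.2 prior degrees of freedom), with Benjamini-Hochberg adjustment over all genes and a threshold of 0.05. Alternatives were pseudocounts, filters, median-ratio scaling, robust empirical Bayes, edgeR 4.0.16 and DESeq2 1.42.0 on recovered reads, a replicate block, leaving out each replicate, and summing of genes that share sequence. For ATRA against DMSO, limma called 7704 genes, edgeR 7748 and DESeq2 5847.

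The members and gene lists were chosen with earlier results of these data known. Beside the members and the treatment checks CYP26A1 and HMOX1, the genes eligible to be named were up to 3 called genes of each list with the smallest p per comparison and the 3 genes most like each member by Pearson's r. Genes outside this rule (CCL4L1, CNTNAP1, cell type markers and the neighbours of CCR1 and CCR2) were named after their values were seen. Promoters came from RefSeq tables on GRCh38.p14, and 31-base words from GENCODE release 29 transcripts. Some genes that met these rules are not reported here.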

Additional observations from a re-analysis of the deposited data

Results flagged for a closer look

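Among the genes singled out in the text by the naming rule, those are listed here whose ATRA difference after a Cfz pulse differed from that without it, by limma's interaction test. None of the 8 chemokine genes met this. Of 10 tested plasma cell markers, which the rule does not name, 1 was called higher and 1 lower by the same test. CYP26A1, the ATRA check, differed by 0.86 ± 0.12 in log2 (adjusted p = 0.012), with an ATRA difference of 6.38 after the pulse and 5.52 without it. Leaving out 1 library at a time gave adjusted p from 7.2e-09 to 0.071, edgeR gave 9.6e-03 and DESeq2 1.0e-03.

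JUN, a transcription factor of CXCL10 and CCL3, differed by 0.55 ± 0.12 (adjusted p = 0.038), with ATRA differences of -0.34 after the pulse and -0.89 without it. Leave-one-out adjusted p ran from 6.5e-03 to 0.1, and it was 0.039 with edgeR and 0.31 with DESeq2. MIF, a ligand of CXCR4, differed by -0.5 ± 0.1 (adjusted p = 0.035), with ATRA differences of -0.48 after the pulse and 0.02 without it. Leave-one-out adjusted p ran from 9.9e-04 to 0.12, and it was 0.037 with edgeR and 0.015 with DESeq2. Each rests on a single Cfz and a single ATRA+Cfz library.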

How the results depend on the processing

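Signs were compared after rounding to 2 decimals. A rounded value of 0.0, such as the main CCL3 interaction, therefore never counted as a change of sign. Of 615 values computed under alternatives, 12 had another sign than the main value by this count, and 11 of these were not called under either setting. The other was CCL3 in ATRA+Cfz against ATRA, where -0.11 became 0.09 (adjusted p = 0.03) when summed with CCL3L1 without DMSO 3, and also 0.09 with DMSO 3 kept (adjusted p = 0.79). DESeq2 called fewer genes than limma, 2995 against 4818 for ATRA+Cfz against Cfz, 1881 against 3948 for Cfz against DMSO, 2692 against 4884 for ATRA+Cfz against ATRA and 179 against 364 for the interaction. The cause was not tested. The interaction count went from 2 (without ATRA 1), 8 (without ATRA 2) and 35 (without ATRA 3) to 164 (without DMSO 2), 240 (without DMSO 1) and 1985 (without DMSO 3) when replicates were left out in turn. Without DMSO 3, 6 in place of 2 members were called for Cfz against DMSO and 3 in place of 0 for the interaction, and the lowest counts over the libraries left out were 2 and 0. Calls over all genes for Cfz against DMSO were 5442 without DMSO 3, in place of 3948. For ATRA+Cfz against Cfz, 6 or 7 members were called under the alternatives. CCL3 lost its call with robust empirical Bayes (adjusted p = 0.092) and when summed with CCL3L1 (adjusted p from 6.6e-12 to 0.53 over its alternatives). CXCL10 in Cfz against DMSO was called with edgeR (0.79, adjusted p = 0.048). For ATRA against DMSO, CXCR3 ran from -2.17 to -3.03 and CX3CR1 from -2.1 to -3.29 over pseudocounts and count tools. Depth limits CX3CR1 and CXCR3 with ATRA, at 5 to 16 reads a library.

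DMSO and ATRA libraries of the same number did not deviate together (correlations of deviations from the group means of -0.006, -0.002 and 0.006). These values cannot tell whether libraries of the same number were set up together. A fit with the replicate block called 241 genes for the interaction, and 7, 2, 4 and 0 members in the 4 tested comparisons, as without the block.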

Other observations

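CCR1 and CCR2 lie in a row of chemokine receptor genes on chromosome 3, and their neighbours were looked up in the RefSeq order after the values of the members were seen. Of 13 genes in that row, 10 had a value. LZTFL1, at one end, was at 35.1, 38.5 and 41.3 FPM with DMSO and 172, 168 and 170 FPM with ATRA (log2 difference 2.14, adjusted p = 1.5e-10), and at 30.2 FPM with Cfz and 140 FPM with ATRA+Cfz (2.2, adjusted p = 4.6e-08). Between it and CCR1, FYCO1 differed by 0.01 with ATRA (adjusted p = 0.92) and XCR1 by -0.18 (adjusted p = 0.051). CCR3 (-0.39, adjusted p = 0.063), CCRL2 (-0.3, adjusted p = 0.22) and LRRC2 (-0.16, adjusted p = 0.53) did not pass the test either.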
